A study of Mus musculus with 31 samples.

Results

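Open chromatin was examined at 10 genes of forkhead transcription factors (TFs) in mouse fibroblasts: Foxc1, Foxc2, Foxd1, Foxf1, Foxf2, Foxm1, Foxo1, Foxo3, Foxp1 and Foxs1. The genes were taken by name, with no threshold on their peaks, and are 10 of 21938 protein-coding genes of the annotation. For each gene, the ATAC-seq peaks near its transcription start sites (TSSs), inside the gene and within 50 kb of it were collected. In ATAC-seq the Tn5 transposase inserts sequencing adapters where DNA is accessible, and a peak marks a stretch where more sequenced fragments pile up than in the surrounding chromatin. The series holds 31 ATAC-seq samples of NIH-3T3, an established line of mouse embryo fibroblasts, and 1 of them, the parental line without a transgene, came with a list of peaks and is described here. The other 30 samples, in which a TF or only the doxycycline-dependent activator rtTA3G was expressed, were not analysed here. The parental library was made from 50000 cells with 0.5 μM Tn5 and 12 PCR cycles, and its labels list no doxycycline. The methods of the study describe doxycycline for NIH-3T3 cells before ATAC-seq, without stating whether the parental library was treated. With 1 library there is no replicate error, no groups were compared and no test was made. The peaks of 1 library are not replicates of each other, and every interval below covers counting error only.

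Forkhead proteins bind DNA through a winged-helix domain, and several of them can bind sites within closed chromatin. FOXC1 and FOXC2 act in somites, skeleton and vessels, FOXD1 marks the stroma of the developing kidney, FOXF1 and FOXF2 act in the mesenchyme around the gut and lung, and FOXS1 is known from the neural crest and cells around vessels. The remaining genes are used in a broad range of cells: FOXM1 drives genes of mitosis, FOXO1 and FOXO3 are held out of the nucleus by insulin and growth factor signalling through AKT, and FOXP1 is a repressor with many isoforms. A promoter peak does not measure RNA, and whether the genes were transcribed was not measured.

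Of the 10 genes, 8 had a promoter peak, meaning a peak within 1 kb of an annotated start. Over all protein-coding genes this share was 53.7%. The genes without one were Foxd1 and Foxf1, both from the 6 genes known from mesenchyme, whereas the 4 broadly used genes Foxm1, Foxo1, Foxo3 and Foxp1 all had one. At 7 of the 10 genes a peak covered an annotated start, against 48.7% of protein-coding genes. A promoter rich in CpG dinucleotides, with at least 0.6 of the CpGs expected from its base composition and at least 50% G and C within 250 bp of the outermost start, was found at 9 of the 10 genes. Of these, 7 had a promoter peak, a share close to the 82.0% of all CpG-rich promoters. Foxs1, the gene outside this class, had 0.316 of the expected CpGs. At that share the promoter peaks give no check of the naming of these genes as mesenchymal or ubiquitous.

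As examples of a CpG-rich promoter with and without a peak, the 100 bases upstream of Foxo1 and of Foxd1 are shown, taken from RefSeq promoter sequences (GRCm38.p6) on the plus strand, which is the strand of both genes. RefSeq sequences were matched for 6 of the 10 genes. The first is chr3:52268236-52268335 and lies inside the strongest promoter peak of the group. The second is chr13:98354142-98354241, beside a start that is 32040 bp from the nearest peak. Capitals mark each CpG.
Foxo1 upstream: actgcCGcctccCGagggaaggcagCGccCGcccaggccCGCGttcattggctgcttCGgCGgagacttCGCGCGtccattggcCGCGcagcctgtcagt
Foxd1 upstream: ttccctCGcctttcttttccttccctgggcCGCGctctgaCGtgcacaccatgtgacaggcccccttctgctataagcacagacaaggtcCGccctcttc
The Foxo1 stretch held 13 CpGs and 71% G and C, and the Foxd1 stretch held 5 CpGs and 59% G and C. Within 250 bp of each start, Foxo1 had 1.10 of the expected CpGs and Foxd1 had 0.686. The share of G and C did not separate the genes with and without a promoter peak. Foxf1, without one, had 75.4% G and C, against 67.1% at Foxo1, which had one. By the share of expected CpGs, Foxd1 and Foxf1 (0.842) were the lowest of the 9 CpG-rich genes. The next was Foxc2, which had a peak, at 0.858, a small difference from Foxf1. Foxs1, outside the CpG-rich class, had a peak at 0.316. Whether CpG content accounts for the missing peaks was not tested.

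Peaks away from promoters, over 1 kb from any annotated start, are shown by 50 bp to either side of the summit of 5 of the stronger such peaks near these genes that held TGACTCA, the sequence bound by AP-1 (Fos and Jun dimers), and by the 1 window that held the forkhead sequence TGTTTAC. All are from the plus strand of the reference genome (GRCm38, the same build as mm10), and capitals mark TGACTCA, or its reverse complement TGAGTCA, in the first 5 and TGTTTAC in the last.
Foxp1 downstream, chr6:98901350-98901450: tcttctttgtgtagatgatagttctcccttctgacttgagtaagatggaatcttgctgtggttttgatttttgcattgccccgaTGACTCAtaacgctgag
Foxp1 intron, chr6:99130736-99130836: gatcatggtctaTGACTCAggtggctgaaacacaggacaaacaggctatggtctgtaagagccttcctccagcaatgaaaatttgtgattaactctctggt
Foxc2 and Foxl1 downstream, chr8:121134307-121134407: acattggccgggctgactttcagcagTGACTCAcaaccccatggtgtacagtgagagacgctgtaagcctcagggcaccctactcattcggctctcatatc
Foxo3 upstream, chr10:42299625-42299725: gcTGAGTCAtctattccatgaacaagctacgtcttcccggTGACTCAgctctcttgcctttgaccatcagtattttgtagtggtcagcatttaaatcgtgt
Foxf1 downstream, in a Mthfsd intron, chr8:121099832-121099932: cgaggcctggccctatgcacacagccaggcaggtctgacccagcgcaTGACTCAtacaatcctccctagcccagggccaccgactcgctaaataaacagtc
Foxp1 intron, forkhead sequence, chr6:99011966-99012066: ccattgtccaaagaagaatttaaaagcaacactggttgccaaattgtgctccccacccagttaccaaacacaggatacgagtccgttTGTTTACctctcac

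Most promoter peaks of these genes were below the median strength of promoter peaks. The measure used is the fold enrichment, which divides the number of fragments stacked at the summit by the number expected locally, after adding 1 to each. The strongest promoter peak of the 8 genes had a median fold of 7.03, with a range from 6.22 to 11.2. Over all protein-coding genes with a promoter peak the median was 9.86 and the middle 50% of genes lay between 7.27 and 12.4. Foxo1 was the 1 gene of the 8 above that median. By -log10 q, the significance of the peak as the peak caller gave it, the 8 genes had a median of 28.2 against 42.0, and 3 of them (Foxm1, Foxo1 and Foxo3) were above. The plot of promoter folds shows these genes on the lower side of the distribution.

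**Figure D1:**
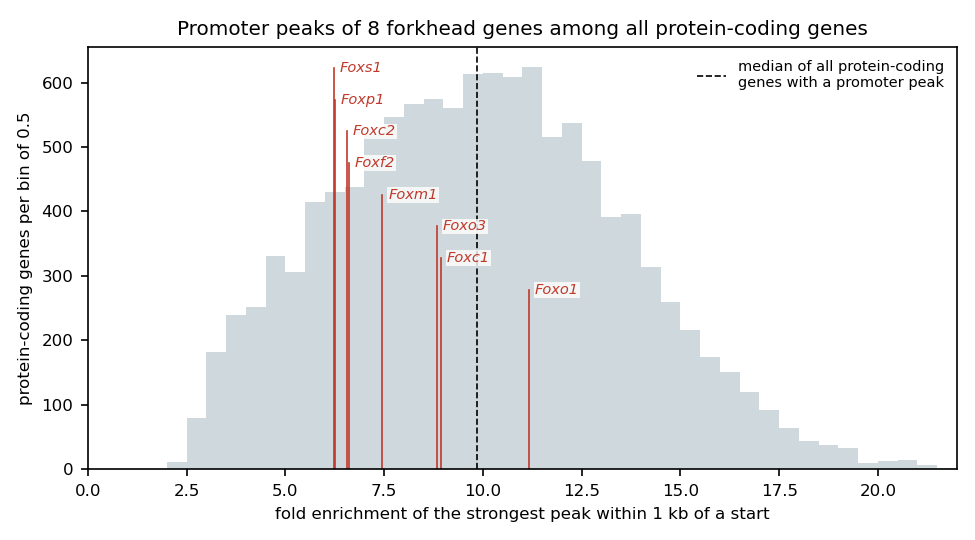
Histogram of the fold enrichment of the strongest peak within 1 kb of a start, for all protein-coding genes with such a peak (grey, bins of 0.5, horizontal axis cut at 22), with the 8 forkhead genes that have one as red lines whose heights only separate the names. Of the 8, 7 lie left of the median of 9.86 (dashed line) and Foxo1, at 11.2, lies to its right.

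Among the broadly used genes, Foxo1 had the strongest promoter peak. It spanned chr3:52267926-52268860, was 935 bp wide, had a fold of 11.2 and a -log10 q of 56.1, and its summit lay at -2 bp from the start (negative values are upstream). The pileup at the summit was 81 fragments, with an exact Poisson 95% interval of 64.3 to 100.7. This fold was higher than that of 63.5% of protein-coding genes with a promoter peak. Gm20402 also has a start within 1 kb of this peak, so the peak may not belong to Foxo1 alone. Another peak inside Foxo1, at 1824 bp with a fold of 5.52 and 40 fragments, lay within 1 kb of a Gm20402 start.

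Foxo3 had a pair of promoter peaks of similar size. The peak over its outermost start, chr10:42276427-42276998, had a fold of 8.57 and 78 fragments at a summit 22 bp inside the gene. The other, chr10:42277433-42278380, had a fold of 8.84 and 80 fragments at -1115 bp. Of the 5 annotated starts of Foxo3, 4 lay in a peak.

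Foxm1 also had 2 promoter peaks, and each lay within 1 kb of a different start. The first, chr6:128362234-128363361, covered the outermost start of Foxm1 as well as the start of Rhno1, a DNA damage response gene on the opposite strand with 55 bp between their starts, so that its fold of 7.04 and its 83 fragments belong to a shared promoter. Its summit lay in an untranslated exon of Rhno1, at -295 bp from Foxm1. The second, chr6:128364575-128365090, lay in an intron of Foxm1 at 1926 bp, within 1 kb of an internal start, with a fold of 7.45 and 86 fragments. Of 7 annotated starts of Foxm1, 1 lay in a peak and 2 were within 1 kb of one. The 5 peaks near starts of other genes within 50 kb lay on either side of these values. The peaks near the starts of Tulp3 (fold 12.0), Gm44190 (fold 11.5) and Itfg2 (fold 11.1) were stronger, and a second peak near an Itfg2 start (fold 5.03) and the peak near the Tex52 and Gm44596 starts (fold 2.68) were weaker.

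Among the genes known from mesenchyme, Foxc1 had the strongest promoter peak. It spanned chr13:31806254-31806805 with a summit at -8 bp, a fold of 8.94, a -log10 q of 34.8 and 57 fragments. Foxc1 is a gene of 1 exon, and 2 more peaks lay within it: at 719 bp with a fold of 3.01 and 18 fragments, and at 1606 bp with a fold of 5.61 and 35 fragments, both in the coding sequence. The strongest peak of Foxc2, chr8:121116021-121116914, had a fold of 6.55 and 43 fragments at 69 bp, in its 5′ untranslated region. Foxc2 too had a weak peak in its coding exon, at 1347 bp, with a fold of 2.86 and 18 fragments.

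Foxf2 had the widest of the strongest promoter peaks, 1537 bp, at chr13:31625172-31626708, with a fold of 6.60 and 39 fragments at -234 bp. Starts of the noncoding 1700018A04Rik and of Gm27516 lay within 1 kb of the same peak, and it cannot be told which start it belongs to. A weaker peak with a fold of 3.93 followed at 1269 bp in the coding exon. Foxs1 had its promoter peak beside and not over the start: chr2:152933740-152934158 lay 532 bp upstream, with a summit at -586 bp, a fold of 6.22 and 33 fragments. It was the weakest of the 8.

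The order of these folds was Foxo1, Foxc1, Foxo3, Foxm1, Foxf2, Foxc2, Foxp1 and Foxs1, and it rests on small differences. With the counting interval of the summit pileup and the expected pileup taken as known, the fold of Foxo1 ran from 8.89 to 13.8, that of Foxc1 from 6.81 to 11.5 and that of Foxs1 from 4.34 to 8.66. All 7 neighbouring pairs in the order overlapped. The intervals of 3 genes (Foxc2, Foxp1 and Foxs1) lay wholly below that of Foxo1. The intervals of 5 genes (Foxm1, Foxf2, Foxc2, Foxp1 and Foxs1) lay wholly below the median of 9.86 over protein-coding genes.

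Foxf1 and Foxd1 lay in long stretches without any peak. Around Foxf1 the stretch was chr8:121052141-121099710, 47.6 kb long, and it also held the start of Fendrr, the long noncoding RNA transcribed from the opposite strand next to Foxf1. Around Foxd1 it was chr13:98322203-98393534, 71.3 kb long. Of all distances between neighbouring peaks, 84.3% were shorter than the first and 90.3% shorter than the second, with a median of 12236 bp. A gene without a peak falls more often in a long distance than in a short one. These shares therefore do not show that the stretches were unusual for such genes. The nearest peak was 15325 bp from the Foxf1 start and 32040 bp from the Foxd1 start. The 1877 CpG-rich protein-coding genes without a promoter peak had a median distance of 12670 bp to the nearest peak, below that of both genes. Over all protein-coding genes without a promoter peak the median was 23094 bp, and Foxf1 was nearer to a peak than that and Foxd1 farther.

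Only uniquely mapped reads were kept, so the genome was searched for copies of the sequence around each start. The 500 bp to either side of the outermost start matched no other place by BLAST at an e-value of 1e-10 for any gene but Foxf1. At Foxf1 they matched 3 places, the longest with 89.1% identity over 386 bp, at chr13:31626342-31626726 in Foxf2. That place lies just past the 500 bp searched at Foxf2, so Foxf2 shares the similarity although its own search found none. It lies almost wholly within the promoter peak of Foxf2. Whether reads at Foxf1 were lost in the mapping was not tested.

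**Figure D2:**
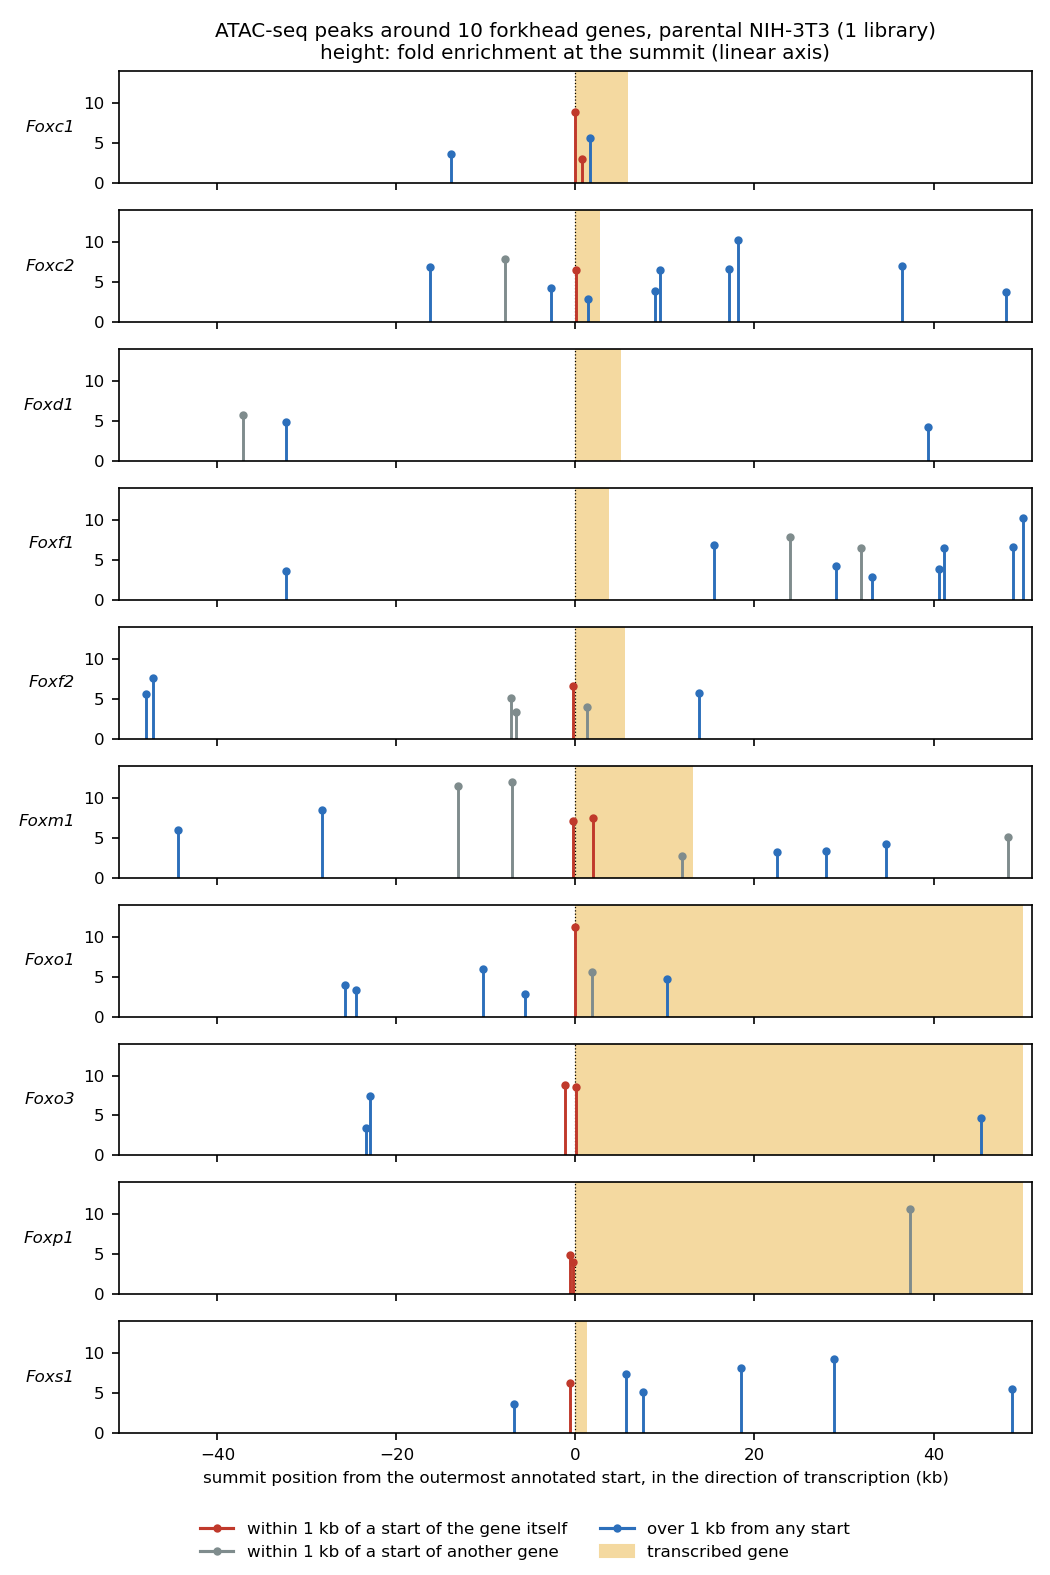
Peaks around each of the 10 genes, drawn at the distance of the summit from the outermost annotated start in the direction of transcription (horizontal axis, kb), with the fold enrichment as height (linear axis, 1 library, no error bars). Shading marks the transcribed gene, the view ends 50 kb on either side, and peaks farther out in the long genes Foxo1, Foxo3 and Foxp1 and beyond the 3′ end of Foxm1 are not drawn. Foxd1 and Foxf1 have no peak at the start, and Foxs1 has its peak beside it.

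All 10 genes had at least 1 peak within 50 kb of the gene, against 84.2% of protein-coding genes. The counts were 15 for Foxp1, 13 for Foxm1, 11 for Foxc2, 10 for Foxf1, 9 for Foxo1, 7 each for Foxf2, Foxo3 and Foxs1, 4 for Foxc1 and 3 for Foxd1. The median was 8, against 5 over protein-coding genes. Long genes have larger windows, and per 100 kb of window 6 of the 10 genes were above the median of 3.94 over protein-coding genes. Together these were 77 different peaks, of which 9 were counted for both Foxf1 and Foxc2. Of the 77 peaks, 14 were promoter peaks of these genes, 12 lay only near starts of other genes, and 51 were over 1 kb from any start.

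The 51 promoter-distal peaks were close in strength to others of the list. Their median fold was 5.55, against 5.54 over all 47192 promoter-distal peaks of the list, 26 of them were above that value, and their median width was 296 bp against 278 bp. Their summits lay in introns of protein-coding genes in 27 cases (52.9%, against 43.4% of all such peaks). They lay in coding exons in 2 cases (3.92%, against 0.790%) and between genes in 22 (43.1%, against 54.4%). Of the 27 intronic summits, 11 lay in introns of the 10 genes themselves and another 11 only in predicted genes whose names begin with Gm, such as Gm20388 on chromosome 8. A promoter-distal peak inside the gene was found at 5 of the 10 genes (Foxc1, Foxc2, Foxo1, Foxo3 and Foxp1), against 32.7% of protein-coding genes. There were 13 such peaks, 9 of them in Foxp1.

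Foxf1, Foxc2 and Foxl1 form a cluster on chromosome 8 in which the peaks were unevenly placed. The cluster is 46.3 kb long and held 7 peaks. None of them lay at Foxf1. Between the end of Foxf1 and the start of Foxc2, 28.0 kb apart, there were 3 peaks, of which 1 was the promoter peak of Mthfsd, named for a domain of folate metabolism (fold 7.83, 43 fragments). The first peak downstream of Foxf1, chr8:121099711-121099992 in an intron of Mthfsd, had a fold of 6.85 and 38 fragments, and TGACTCA lay exactly at its summit, as printed above. Between Foxc2 and Foxl1, a forkhead gene of the gut mesenchyme, 2 peaks had folds of 3.90 and 6.46. Foxl1 itself had no promoter peak, the nearest peak being 1752 bp from its start.

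The strongest promoter-distal peak of this cluster lay beyond its last gene. At chr8:121134023-121134739 it had a fold of 10.3, a -log10 q of 58.0 and 89 fragments (interval 71.5 to 109.5), more than the promoter peak of Foxc2. It lay 15128 bp from the end of Foxc2 and nearer to Foxl1, so its assignment to either gene rests on distance alone. A second peak with a fold of 6.62 and 58 fragments lay beside it. The summit window of the stronger one held TGACTCA at -21 bp from the summit.

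**Figure D3:**
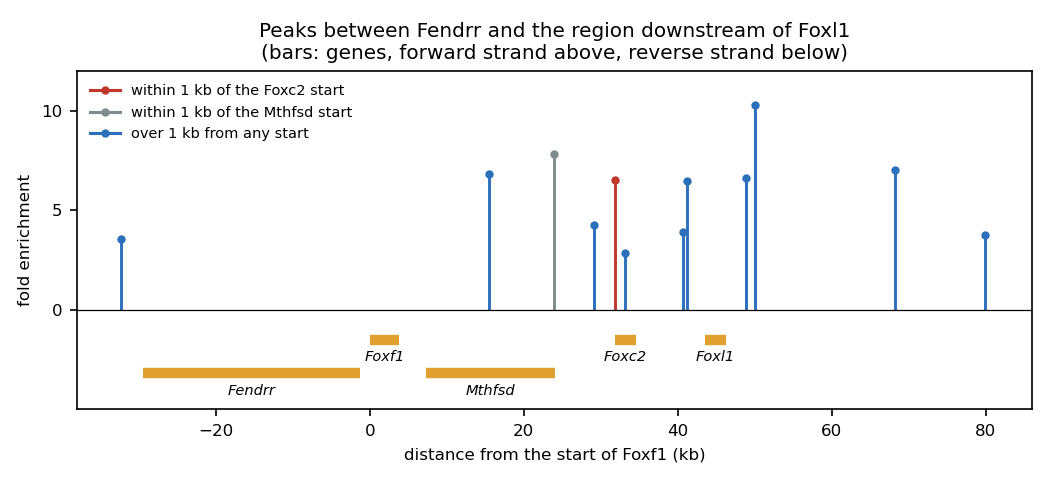
Peaks of the Foxf1, Foxc2 and Foxl1 cluster by the distance of the summit from the Foxf1 start (horizontal axis, kb) and fold enrichment (vertical axis), with genes as bars below. No peak is drawn over Fendrr or Foxf1, the Foxc2 start has a peak with a fold of 6.55, and the tallest peak, with a fold of 10.3, lies past Foxl1.

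The second cluster, with Foxq1, Foxf2 and Foxc1 on chromosome 13, was sparser. It is 256 kb long and held 12 peaks. Of these, 5 lay between Foxq1 and Foxf2, which are 64.8 kb apart, and 2 in the 175 kb between Foxf2 and Foxc1. Foxq1 had no promoter peak. The strongest promoter-distal peak within 50 kb of Foxf2 lay at -47.2 kb with a fold of 7.66 and 29 fragments. This peak was nearer to Foxq1 than to Foxf2, so its assignment to either gene rests on distance alone. The single peak upstream of Foxc1, at -13.9 kb, had a fold of 3.68 and 13 fragments (interval 6.92 to 22.2), close to the lowest pileup in the list of 10 fragments.

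Foxp1 had most of its peaks inside the gene and away from its annotated starts. The gene is 597384 bp long, with 31 annotated transcripts from 22 starts. Of these starts, 6 lay in a peak and 8 were within 1 kb of one. The 6 were all in 1 peak, chr6:99027908-99029110, at about 494 kb from the outermost start, with a fold of 6.26 and 47 fragments, which was the strongest promoter peak of Foxp1. The outermost start was 26 bp from a weak peak with a fold of 4.03 and 16 fragments, and another with a fold of 4.90 and 20 fragments lay next to it. The start shared by most transcripts, 6 of the 31, had no peak within 31708 bp.

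The 9 promoter-distal peaks within Foxp1 were all in introns, with folds from 3.68 to 12.0. The strongest of them, chr6:99130576-99131310, had a fold of 12.0 and 63 fragments. The next, chr6:99011794-99012416, had a fold of 10.7 and 69 fragments, and its window was the 1 with TGTTTAC. The strongest promoter-distal peak of all 10 genes lay 23589 bp past the 3′ end of Foxp1, at chr6:98901018-98901749, with a fold of 17.2, a -log10 q of 80.5 and 90 fragments (interval 72.4 to 110.6). Per length Foxp1 was not rich in such peaks. It had 1.51 per 100 kb of gene, against a median of 1.74 over the 2492 protein-coding genes of at least 100 kb, of which 45.8% had fewer.

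**Figure D4:**
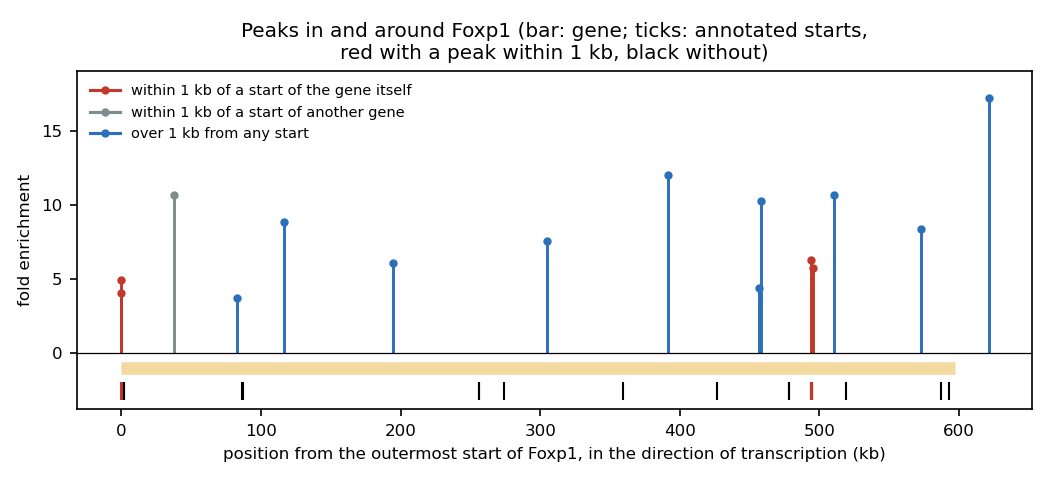
Peaks in and around Foxp1 by the position of the summit from the outermost start in the direction of transcription (horizontal axis, kb) and fold enrichment (vertical axis), with annotated starts as ticks under the gene. Most starts (black ticks) have no peak within 1 kb, and the tallest peak, with a fold of 17.2, lies past the end of the gene at 621 kb.

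At the other genes the strongest promoter-distal peak also lay outside the gene, apart from Foxc1. Near Foxs1 it was chr2:152903631-152904668, 27230 bp past the gene, with a fold of 9.32 and 92 fragments. Another, with a fold of 8.10, lay in an intron of Mylk2, a muscle myosin kinase gene, and 1 more with a fold of 7.47 and 90 fragments lay 4168 bp past Foxs1. All 3 were stronger than the promoter peak of Foxs1. Near Foxm1 it was a peak with a fold of 8.53 in an intron of Tulp3. Near Foxo1 it lay 47702 bp past the gene, with a fold of 8.52. Near Foxo3 it was the upstream peak at -22.9 kb printed above with TGACTCA at 2 places, with a fold of 7.46 and 33 fragments. Near Foxd1 it had a fold of 4.94 and 20 fragments at -32.3 kb.

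Of the 51 promoter-distal peaks, 12 (23.5%, exact 95% binomial interval 12.8 to 37.5%) held TGACTCA on either strand within 50 bp of the summit. Over all promoter-distal peaks of the list the share was 26.4%, which lies within that interval. The 12 windows lay near all of these genes but Foxc1, Foxd1 and Foxf2. TGACTCA lay exactly at the summit of the Mthfsd intron peak downstream of Foxf1 and of a peak 34.7 kb downstream of the Foxm1 start. TGTTTAC was found in 1 of 51 windows (1.96%) against 1.77% of all, in an intron of Foxp1. TGTGGT, bound by RUNX factors, was found in 7 (13.7%) against 13.2%. TTGGCA, part of the sequence bound by NFI factors, was found in 3 (5.88%) against 7.66%. GGAATG, bound by TEAD factors, was found in 1 (interval 0.0496 to 10.4%) against 9.52%, which also lies within the interval. In 1 window near Foxf1 TGACTCA and TGTGGT shared a base, and no other matches of these 5 sequences overlapped. A match is a description and does not show binding.

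**Figure D5:**
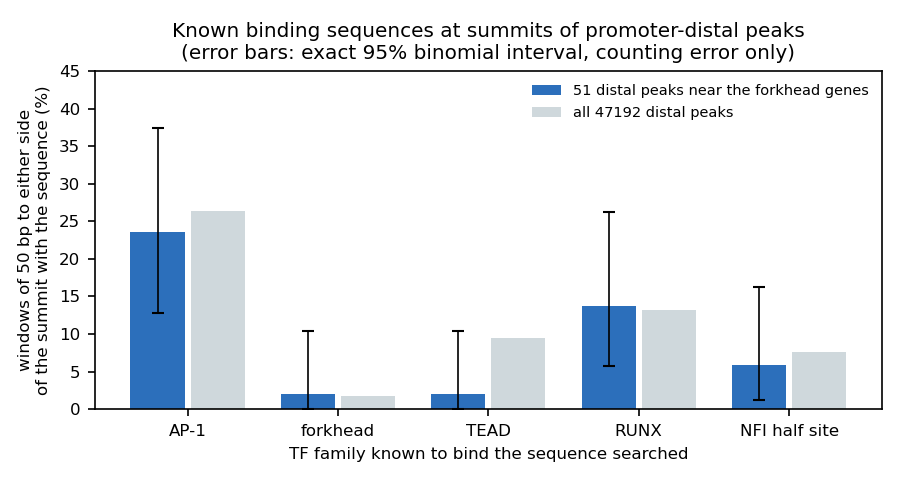
Share of windows of 50 bp to either side of the summit that hold the sequence of each TF family (vertical axis, percent), for the 51 promoter-distal peaks near the forkhead genes (blue, exact 95% binomial intervals) and all 47192 promoter-distal peaks (grey). For each of the 5 families the grey bar lies within the blue interval.

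In the 14 promoter peaks of these genes, GGGCGG, bound by SP and KLF factors, was found in 6 summit windows (42.9%, interval 17.7 to 71.1%) against 30.5% of all peaks near a start. CCAAT, bound by NF-Y, was found in 2 against 19.9%, at Foxc1 and Foxo1. Over the 55 bp between the starts of Foxm1 and Rhno1, outside the summit window, it was found on each strand, at 2 places in all. TGACTCA was found in 0 of 14 (interval up to 23.2%) against 8.15%. TGACGT, bound by CREB and ATF factors, was found in 0 of 14 against 4.88%. The sequences of cell cycle promoters, TTTGAA, TTTCCCGC and TTTGGCGC, were found in 1, 0 and 0 of the 14 windows, against 3.24%, 0.510% and 0.307% of all peaks near a start. The 1 match was at an internal promoter of Foxp1, and none was in the windows of the 2 promoter peaks of Foxm1. Among the 51 promoter-distal windows TTTGGCGC was found in 1 (1.96%, interval 0.0496 to 10.4%) against 0.110% of all, which lies within that interval. The match was at a peak with its summit at -44.4 kb from the Foxm1 start, and its assignment to Foxm1 rests on distance alone.

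Of the 34 other forkhead genes, 14 had a promoter peak, among them Foxd2, Foxj2, Foxk1, Foxk2, Foxn2, Foxn3, Foxo4 and Foxp4, against 8 of the 10 described here and 53.7% of protein-coding genes. A peak covered a start at 10 of the 34. Of their 21 CpG-rich promoters, 10 had no peak, whereas 82.0% of all CpG-rich promoters had one. Where a peak was present, the strongest promoter folds of these other forkhead genes had a median of 9.58, against 7.03 for the genes described here. Foxa1, a forkhead gene of endoderm that the study overexpressed in other samples, had no promoter peak in this line and 1 peak within 50 kb. The difference between the 2 sets was not tested.

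As a check of the cell type, genes with a promoter peak were counted. All 12 fibroblast genes examined, among them Col1a1, Col1a2, Fn1, Vim, Pdgfra and Prrx1, had one, over the start at 11. Of 9 epithelial genes 3 had one (Grhl2, Krt14 and Krt8), with a peak over the start at 1. Of 4 blood genes Spi1 had one, not over its start. Of 4 endothelial genes Cdh5, Pecam1 and Tek had one, over the start at 1. The share over all protein-coding genes was 53.7%. The fibroblast and endothelial lists were both above it, so a peak within 1 kb of a start does not separate these cell types. The median strongest fold was 6.47 for the fibroblast, 5.40 for the epithelial and 8.40 for the endothelial genes with a promoter peak, and the Spi1 peak had a fold of 3.22.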

How the data were processed

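The data were the ATAC-seq peaks of the parental NIH-3T3 library. Per the labels and the methods of the study, the authors mapped read pairs with STAR 2.5.3a (mm10), used Picard against duplicates and kept unique matches, and MACS2 2.1.1.20160309 called the peaks. A shift of reads for the Tn5 cut is not described in the sources used here, so summits are positions of fragment pileup. The authors deposited a fold enrichment (a ratio) per peak, and −log10 p and −log10 q values from a Poisson test, with a score derived from q. These were used to describe peaks within the list of 63456. The pileup at each summit was solved from the fold and the −log10 p, and 99.9968% were within 0.02 of a whole number. The median was 29 fragments. The read depth of the library is not given in the sources used here.

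Peaks were placed on the GENCODE M21 annotation of GRCm38 (mm10), counted from 1. Tools were BLAST 2.17.0 and Python 3.11.15 with pandas 2.3.3, NumPy 2.4.6, matplotlib 3.10.9 and SciPy 1.17.1. The functions were tested on simulated data. The genes and lists were chosen with earlier results of these data known. All 10 genes are named, with the strongest promoter and promoter-distal peak of each, some of the other forkhead genes with a promoter peak, Foxa1, and nearby genes with a peak at the start. Alternatives changed the q, the fold, the distance to the start, the starts used and the window searched. Of the other forkhead genes 1 is not reported here, nor is 1 summit sequence.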

Additional observations from a re-analysis of the deposited data

How the results depend on the processing

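No paired analysis was possible because a list of peaks was at hand for 1 library alone. Of 55 alternative values, 43 were within a factor of 1.5 (counts and the median fold) or within the binomial interval (percents), and 12 were not. Foxd1 and Foxf1 lacked a promoter peak under every setting tried, and Foxs1 also when the peak had to cover the start or lie within 500 bp. The share of protein-coding genes with a promoter peak was 52.0% at a q of 1e-05 or below, 48.8% at a fold of at least 5, 48.7% with a peak over the start, 52.0% within 500 bp, 62.8% within 5 kb, 52.0% from starts of coding transcripts, 48.9% from the outermost start and 53.0% by summit. At a fold of at least 5 there were 47 peaks within 50 kb and 8 promoter-distal peaks inside the genes, and 119 peaks lay within 100 kb. TGACTCA was found in 45.1% of whole promoter-distal peaks, against 40.8% of all, since a wider window holds more matches. With 1 library no value has a biological error, and weak peaks rest on as few as 10 fragments.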
